A study of Homo sapiens with 12 samples.

Results

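Glycosyltransferases build the sugar chains of glycoproteins and glycolipids in the Golgi, each adding 1 kind of sugar in 1 linkage to a growing chain. The genes described here were the protein-coding genes that the authors' deposited table lists under names of 11 families, namely GALNT, GCNT, MGAT, B3GNT, B3GALT, B4GALT, ST3GAL, ST6GALNAC, ST6GAL, ST8SIA and FUT followed by a digit. The rule found 44 genes among the 14559 genes of that table and the 60670 genes of the deposited counts. They were grouped by family name alone, each family under 1 step. The groups were 9 O-glycan start genes (GALNT), 7 branching genes (GCNT and MGAT) and 13 chain extension genes (B3GNT, B3GALT and B4GALT). The others were 8 sialylation genes and 7 fucosylation genes (FUT). A group can thus hold genes of another step, such as B3GALT6, which builds the linker of proteoglycan chains, in chain extension.

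The libraries came from MDA-MB-453, an established breast cancer cell line that responds to androgen and lacks estrogen receptor alpha. The 6 DHT libraries were from cells given 10 nM dihydrotestosterone, a potent androgen, for 6 h, and the 6 vehicle libraries from cells given 0.001% ethanol for the same time. Both groups shared 72 h of culture in high-glucose medium with fetal bovine serum. The replicates of a group were consecutive passages of this 1 line, so the spread between them is that between passages and p-values measure no more than that.

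In mucin-type O-glycosylation a GALNT enzyme attaches N-acetylgalactosamine to serine or threonine, and GCNT enzymes can then branch the chain. On N-glycans the MGAT enzymes open new branches, which B4GALT and B3GNT enzymes lengthen with galactose and N-acetylglucosamine. Sialyltransferases and fucosyltransferases cap or decorate the chains, and such capped structures are well known as tumour-associated antigens of breast epithelium. In prostate cancer cells several of these genes, among them ST6GALNAC1, GCNT1, GALNT7 and ST6GAL1, are known to be raised by androgen.

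Of the 44 members 2 rose and 3 fell after DHT in edgeR's quasi-likelihood test (Benjamini-Hochberg adjusted p under 0.05 over 16355 genes), and 39 did not pass. Over all genes tested 2.84% were called, and among the 11254 protein-coding genes of the authors' table, from which the members come, 3.57% were. By direction, 1.96% of all genes tested were raised and 0.88% lowered, and among those protein-coding genes 2.51% and 1.07%. Unadjusted p under 0.05 was met by 6 members upward and 6 downward, beside 13.7% of those protein-coding genes in either direction. DESeq2 called 3 members raised and 6 lowered, where it called 4.09% of its genes, and limma-voom 2 and 4, where it called 2.8%. GALNT18, a gene of the GALNT family by name, and B4GALT5, which makes lactosylceramide, the base of most glycolipids, were higher. GALNT10, an O-glycan starting gene that prefers partly glycosylated peptides, B3GNT5, which turns lactosylceramide towards the lacto-series glycolipids, and FUT8, the enzyme of core fucose on N-glycans, were lower. In bulk RNA, fewer cells of a type and less RNA per cell cannot be told apart.

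Promoters of the changed members are shown because the series concerns AP-2β, and an androgen was given. RefSeq sequences (GRCh38.p14), from 250 bases before to 50 bases after a start site, were at hand for 4 of the 5 changed members. They cover chr3:183253003-183253302 (plus strand) for B3GNT5, chr14:65410342-65410641 (plus strand) for the first FUT8 start, chr5:154190483-154190782 (plus strand) for GALNT10 and chr20:49713829-49714128 (minus strand) for B4GALT5. Capitals mark the steroid response half-site AGAACA or the AP-2 motif GCCNNNGGC on either strand.
B3GNT5: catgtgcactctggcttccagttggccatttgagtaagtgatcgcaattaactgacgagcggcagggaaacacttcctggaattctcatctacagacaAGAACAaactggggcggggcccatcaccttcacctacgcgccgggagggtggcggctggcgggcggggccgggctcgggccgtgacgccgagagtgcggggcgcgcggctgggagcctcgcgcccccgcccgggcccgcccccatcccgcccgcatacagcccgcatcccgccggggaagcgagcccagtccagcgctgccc
FUT8: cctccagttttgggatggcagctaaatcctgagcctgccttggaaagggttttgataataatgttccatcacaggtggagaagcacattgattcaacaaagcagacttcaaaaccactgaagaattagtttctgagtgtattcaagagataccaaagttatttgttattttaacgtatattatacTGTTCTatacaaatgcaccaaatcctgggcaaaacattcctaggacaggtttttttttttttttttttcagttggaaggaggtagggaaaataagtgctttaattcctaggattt
GALNT10: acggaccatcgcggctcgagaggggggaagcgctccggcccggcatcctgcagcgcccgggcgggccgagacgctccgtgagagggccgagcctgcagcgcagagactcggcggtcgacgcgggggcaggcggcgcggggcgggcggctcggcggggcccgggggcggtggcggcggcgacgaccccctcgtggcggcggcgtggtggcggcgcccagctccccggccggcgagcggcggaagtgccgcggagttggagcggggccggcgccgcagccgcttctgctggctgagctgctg
B4GALT5: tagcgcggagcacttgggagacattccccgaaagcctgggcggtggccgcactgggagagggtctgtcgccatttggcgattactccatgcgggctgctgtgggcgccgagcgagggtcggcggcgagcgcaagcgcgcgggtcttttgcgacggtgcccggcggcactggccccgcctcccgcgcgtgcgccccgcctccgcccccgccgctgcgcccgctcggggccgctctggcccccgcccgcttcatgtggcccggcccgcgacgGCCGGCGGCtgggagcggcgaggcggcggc
The lowered B3GNT5 holds 1 half-site that begins 152 bases before the start, at -152, and the lowered FUT8 holds 1 at -65 in this window. Its other windows, at chr14:65411613-65411912 and chr14:65412480-65412779, each hold 1 AP-2 motif. The raised B4GALT5 holds 1 AP-2 motif that begins 20 bases after the start, and the GALNT10 window holds neither. Half-sites were present in the first window of 4 of the 33 members with a sequence (12.1%) and in 14.8% of all 35116 windows, and the AP-2 motif in 12 of the 33 (36.4%) against 23.2% of all windows. The full palindrome, an inverted repeat of the half-site with a spacer, was found in 0 of the 33 members and in 1 of all windows. A match of letters is a description of these windows and not a measured site.

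The GALNT family had 1 riser, 1 faller and 7 members short of the threshold, with a median log2 fold change of 0.03, beside -0.05 over all genes tested. Values are given as CPM, counts scaled to the library total after TMM normalisation. GALNT10 (ENSG00000164574, chromosome 5, 154190730 to 154420984 on GRCh38) ran from 196 through a median of 215 to 245 CPM in DHT libraries, and from 306 through 405 to 510 CPM in vehicle libraries. Every DHT library lay below every vehicle library. The log2 fold change was -0.91 (SE 0.13, adjusted p = 0.00102 in edgeR), or 1.88-fold lower in DHT libraries. GALNT10 shares 121 exonic bases with MFAP3 on the same strand and 292 with SAP30L-AS1 on the opposite strand, together a small part of its exons. Neither neighbour passed the test in edgeR. The log2 fold change was 0.12 for MFAP3 (adjusted p = 0.90 in edgeR) and -0.88 for SAP30L-AS1 (adjusted p = 0.257 in edgeR). The part of these neighbours in the GALNT10 counts was not tested.

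GALNT18 (ENSG00000110328, chromosome 11, 11270877 to 11622005) moved the other way. Its DHT libraries ran from 14.6 through a median of 14.7 to 16.7 CPM, and its vehicle libraries from 7.45 through 8.69 to 10.5 CPM, without overlap. The log2 fold change was 0.75 (SE 0.12, adjusted p = 0.00349 in edgeR). The rise was 1.68-fold, and 5 of the 6 DHT libraries lay between 14.6 and 14.8 CPM.

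GALNT6, often raised in breast cancers, did not pass although its groups did not overlap either. It had 206 ± 19.5 CPM in DHT and 272 ± 41.8 CPM in vehicle libraries (SD, n = 6 each), a log2 fold change of -0.40 (adjusted p = 0.117 in edgeR). Groups did not overlap for 6 of the 44 members, 2 with DHT above and 4 with DHT below, beside 4.05% of the protein-coding genes of the authors' table. GALNT7, which also acts on partly glycosylated peptides, had 149 ± 27.1 CPM in DHT and 118 ± 21.7 CPM in vehicle libraries (SD, n = 6 each). Its DHT library was the higher for each of the 6 replicate numbers, but it did not pass (log2 fold change 0.34, adjusted p = 0.401 in edgeR). Replicate numbers were not taken as pairs, and the share of all genes with such agreement was not determined. The other 5 GALNT members (GALNT1, GALNT2, GALNT3, GALNT11 and GALNT14) had log2 fold changes from -0.27 to 0.13, and all 5 did not pass.

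**Figure D1:**
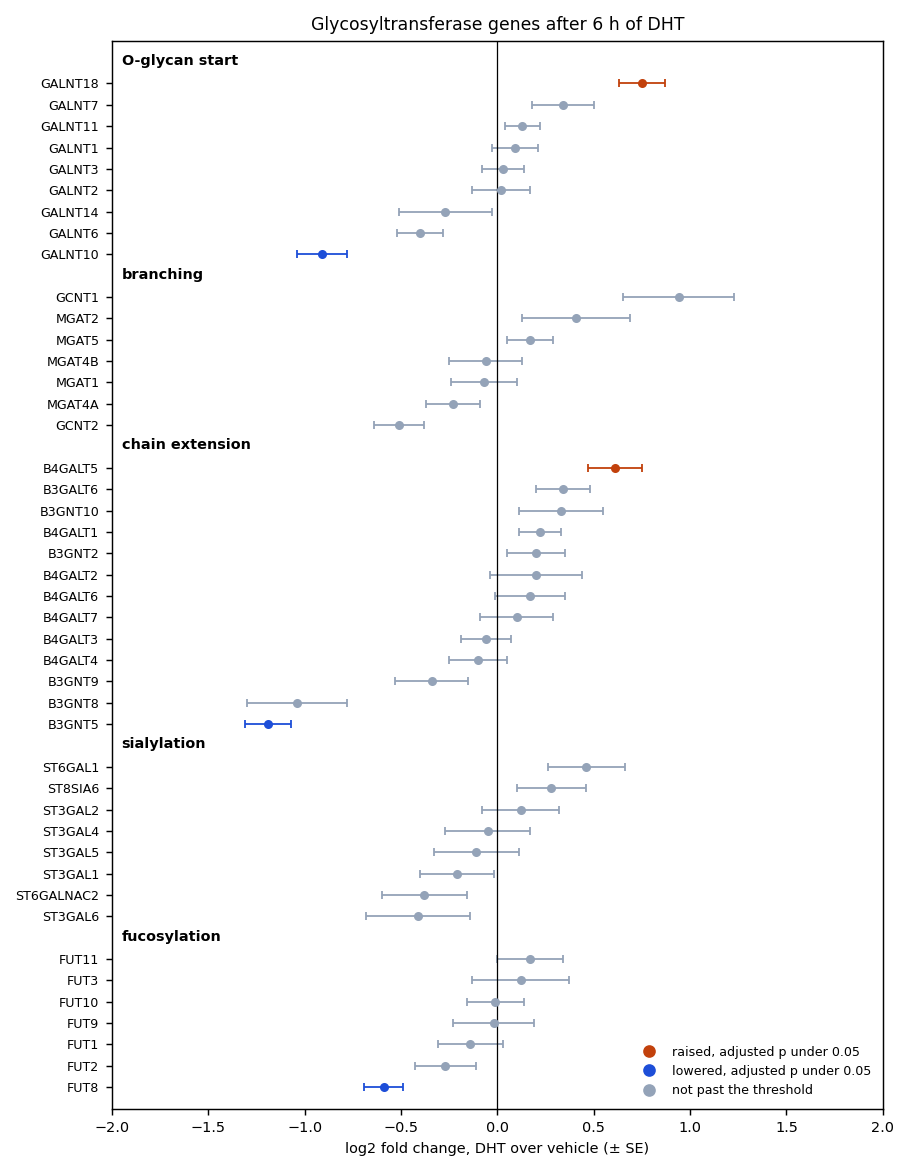
Log2 fold change of each of the 44 members, DHT over vehicle, with its standard error, grouped by the step assigned to its name family and ordered within each group. Among the coloured points GALNT18 and B4GALT5 lie right of 0, and GALNT10, B3GNT5 and FUT8 lie left of it, from -1.19 to 0.75.

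Of 7 branching genes 0 rose, 0 fell and 7 did not pass in edgeR, with a median log2 fold change of -0.06. Unadjusted p under 0.05 was met by 1 upward and 1 downward. DESeq2 called 1 and 1, and limma-voom 0 and 1. These were GCNT1 upward and GCNT2 downward. GCNT1, the core 2 branching enzyme of O-glycans, ran from 4.97 through a median of 5.84 to 9.58 CPM in DHT libraries and from 1.78 through 3.06 to 5.99 CPM in vehicle libraries. The groups overlapped, with the highest vehicle library (replicate 1) above 3 of the DHT libraries. The DHT library was higher for all 6 replicate numbers, which were not taken as pairs. The log2 fold change of 0.94 (SE 0.29) had an adjusted p of 0.119 in edgeR.

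GCNT2, the enzyme of I-branched poly-N-acetyllactosamine, ran from 9.39 through a median of 9.89 to 14.5 CPM in DHT libraries and from 13.4 through 15.6 to 16.3 CPM in vehicle libraries. A single DHT library, replicate 5, reached into the vehicle range. The log2 fold change was -0.51 (SE 0.13, adjusted p = 0.0602 in edgeR), and -0.62 (adjusted p = 0.0140) without DHT replicate 5. Without DHT replicate 1 it was -0.48 (adjusted p = 0.153 in edgeR). GCNT2 passed in 6 of the 20 alternative fits, with adjusted p up to 0.19. Of the 5 MGAT genes all 5 overlapped between groups and did not pass. MGAT4B, which adds a branch to N-glycans, was the most abundant branching gene per length and had 165 ± 33.4 CPM in DHT and 172 ± 56.6 CPM in vehicle libraries (SD, n = 6 each). Its relative MGAT4A had 47.1 ± 6.07 CPM in DHT and 55.3 ± 9.96 CPM in vehicle libraries (adjusted p = 0.617 in edgeR).

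Chain extension genes held 1 of 13 raised, 1 lowered and 11 not passing, with a median log2 fold change of 0.17. B3GNT5 (ENSG00000176597, chromosome 3, 183253253 to 183298504) had the largest fall of the 44 members. Its DHT libraries ran from 17.6 through a median of 22.3 to 24.4 CPM, and its vehicle libraries from 44.0 through 48.4 to 62.1 CPM. All 6 DHT libraries lay below all vehicle libraries, and the log2 fold change was -1.19 (SE 0.12, adjusted p = 9.93e-05 in edgeR), or 2.28-fold lower in DHT libraries. B3GNT5 shares 1315 exonic bases, 16.2% of its exons, with MCF2L2 on the opposite strand, and no source here says whether strand was counted. MCF2L2 had 4.12 ± 0.974 CPM in DHT and 7.53 ± 2.14 CPM in vehicle libraries (SD, n = 6 each) and did not pass (log2 fold change -0.86, adjusted p = 0.0640 in edgeR). Its part in the B3GNT5 counts was not tested.

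B4GALT5 (ENSG00000158470, chromosome 20, 49632945 to 49713878) ran from 61.0 through a median of 64.1 to 66.3 CPM in DHT libraries and from 24.7 through 42.7 to 50.6 CPM in vehicle libraries. The groups did not overlap, and the low vehicle value was that of replicate 5. The log2 fold change was 0.61 (SE 0.14, adjusted p = 0.0338 in edgeR). B4GALT5 missed the threshold without any of DHT replicates 1, 3, 4, 5 or 6 or vehicle replicates 3, 4 or 6, with adjusted p between 0.0626 and 0.0819, and its log2 fold change stayed between 0.60 and 0.62 there. The adjusted p was 0.0634 without a low-count filter. Without vehicle replicate 5 the log2 fold change was 0.50, and B4GALT5 passed.

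Close to the threshold, B3GNT8, which lengthens N-glycan chains, was named after its values were seen. It had 3.44 ± 1.13 CPM in DHT and 7.12 ± 2.62 CPM in vehicle libraries (SD, n = 6 each), with a log2 change of -1.04 (SE 0.26; adjusted p = 0.0527 in edgeR). The DHT library was lower for all 6 replicate numbers, and replicate 2 was the highest library in each group. B3GNT2, the main poly-N-acetyllactosamine enzyme, had 36.6 ± 3.66 CPM in DHT and 32.0 ± 6.87 CPM in vehicle libraries (SD, n = 6 each) and did not pass (adjusted p = 0.751 in edgeR). B4GALT1, the main galactosyltransferase of N-glycans and a part of lactose synthase in the lactating gland, had 188 ± 12.7 CPM in DHT and 162 ± 21.5 CPM in vehicle libraries (SD, n = 6 each; adjusted p = 0.477 in edgeR). B3GALT6, which builds the linker of proteoglycan chains, had 38.03 ± 4.86 CPM in DHT and 30.0 ± 5.98 CPM in vehicle libraries (SD, n = 6 each; adjusted p = 0.321 in edgeR). For B3GNT2, B4GALT1 and B3GALT6 the DHT library was the higher for all 6 replicate numbers, which were not taken as pairs.

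B4GALT6 and ST3GAL5 were named after their values were seen. B4GALT6, which also makes lactosylceramide, was not called (log2 change 0.17, adjusted p = 0.852 in edgeR) at 5.57 CPM in DHT and 4.95 CPM in vehicle libraries. For ST3GAL5, which turns this lipid into the ganglioside GM3, the log2 change was -0.11 (adjusted p = 0.937 in edgeR).

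**Figure D2:**
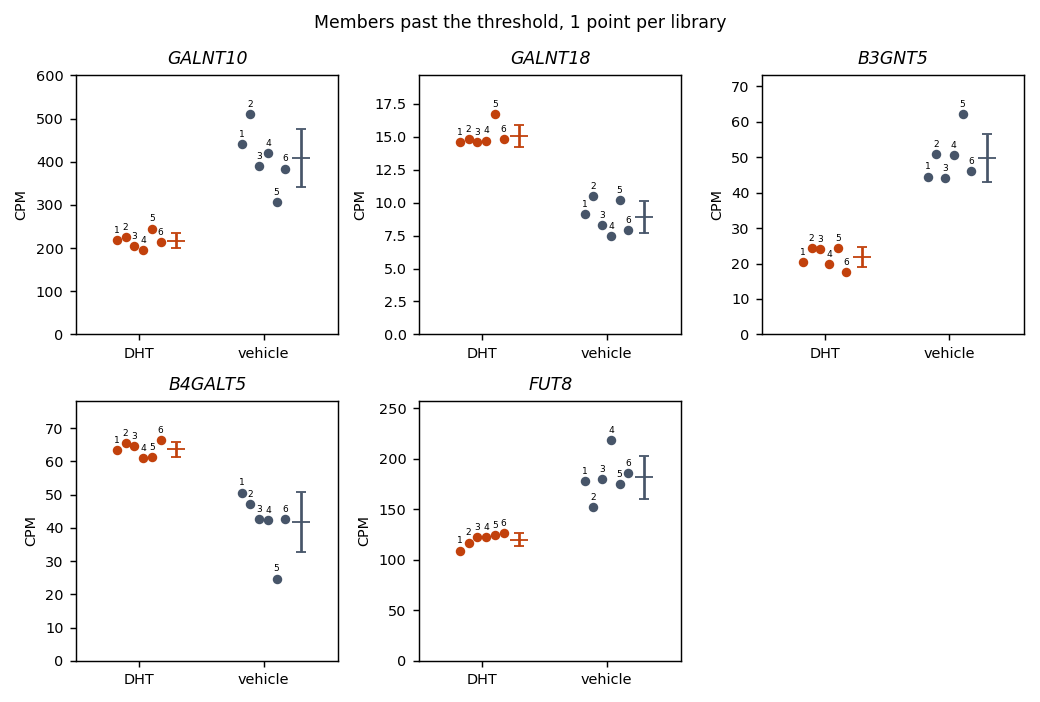
Normalised level in CPM of the 5 members past the threshold in each library, 6 DHT points left of 6 vehicle points, numbered by replicate, with the group mean and SD as bars. In all 5 panels the groups do not overlap, as for B3GNT5 at 17.6 to 24.4 CPM in DHT and 44.0 to 62.1 CPM in vehicle libraries.

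Sialylation genes gave 0 of 8 raised, 0 lowered and 8 not passing in edgeR, with a median log2 fold change of -0.08. Unadjusted p under 0.05 was met by 1 upward and 0 downward, and DESeq2 and limma-voom called 0. That gene was ST6GAL1, which places sialic acid on N-glycans in the α2,6 linkage. It ran from 9.46 through a median of 11.5 to 16.7 CPM in DHT libraries and from 5.77 through 8.66 to 13.1 CPM in vehicle libraries. The groups overlapped, but the DHT library was higher for all 6 replicate numbers (log2 fold change 0.46, SE 0.20, adjusted p = 0.351 in edgeR). ST3GAL1, which caps core 1 O-glycans, had 113 ± 30.6 CPM in DHT and 130 ± 32.8 CPM in vehicle libraries (SD, n = 6 each), with an adjusted p of 0.821 in edgeR. ST6GALNAC2, which adds sialic acid to the innermost sugar of O-glycans, had 38.3 ± 6.38 CPM in DHT and 49.9 ± 18.8 CPM in vehicle libraries (SD, n = 6 each), with an adjusted p of 0.598 in edgeR. ST6GALNAC2 shares 1196 exonic bases, 39.8% of its exons, with ENSG00000284526 on the same strand. It also shares 578 bases (19.3%) with ENSG00000267078 on the opposite strand. The part of these 2 genes in the ST6GALNAC2 counts was not tested. ST3GAL6 (log2 fold change -0.41, adjusted p = 0.668 in edgeR) and ST8SIA6 (0.28, adjusted p = 0.645 in edgeR), a disialyl enzyme of O-glycans, overlapped between groups as well.

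Of the fucosylation genes FUT8 alone fell, 0 of 7 rose and 6 did not pass, with a median log2 fold change of -0.02. Unadjusted p under 0.05 upward was met by 0, and DESeq2 and limma-voom likewise raised 0. FUT8 (ENSG00000033170, chromosome 14, 65410592 to 65744121) ran from 109 through a median of 122 to 126 CPM in DHT libraries and from 152 through 179 to 218 CPM in vehicle libraries. Every DHT library lay below every vehicle library, and the log2 fold change was -0.59 (SE 0.10, adjusted p = 0.00475 in edgeR), or 1.51-fold lower in DHT libraries. FUT8 shares 824 exonic bases, 11.8% of its exons, with FUT8-AS1, which had 87 counts over all 12 libraries beside 24329 for FUT8. The antigen-forming genes FUT1, FUT2, FUT3 and FUT9, which make blood group H and Lewis structures, and FUT10 and FUT11 had log2 fold changes from -0.27 to 0.17 and did not pass. FUT3 can share reads with its close copies FUT5 and FUT6, so its level of 2.00 ± 0.315 CPM in DHT and 1.89 ± 0.695 CPM in vehicle libraries (SD, n = 6 each) is uncertain.

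Levels between members were compared as CPM per kb of exonic length. In DHT libraries the most abundant member was B4GALT1 at 38.5 ± 2.59 CPM per kb, followed by B4GALT3 at 30.7 ± 3.07, MGAT4B at 29.95 ± 6.08 and GALNT6 at 28.1 ± 2.66 CPM per kb (SD, n = 6). In vehicle libraries GALNT10 led with 38.9 ± 6.47 CPM per kb, followed by GALNT6 at 37.0 ± 5.69, B4GALT1 at 33.1 ± 4.39, B4GALT3 at 32.1 ± 6.37 and MGAT4B at 31.3 ± 10.3 CPM per kb (SD, n = 6). These neighbours differed by less than their SDs, apart from the step from B4GALT1 to B4GALT3 in DHT libraries. GALNT10 ranked 6 in DHT and 1 in vehicle libraries, and FUT8 ranked 9 in DHT and 6 in vehicle libraries. At the low end GCNT1 had 0.717 CPM per kb in DHT and 0.376 CPM per kb in vehicle libraries.

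**Figure D3:**
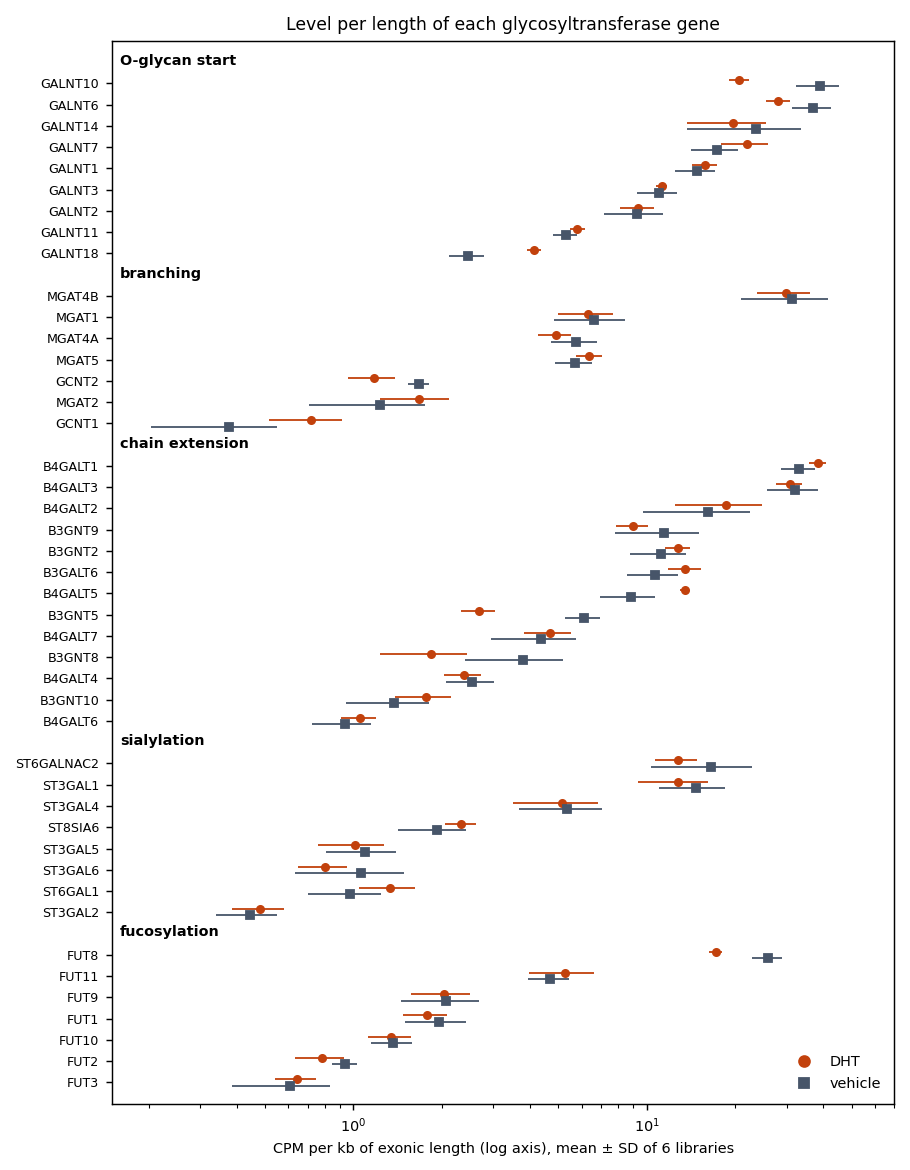
Level of each of the 44 members as CPM per kb of exonic length on a log axis, mean ± SD of 6 libraries, with DHT as circles above vehicle as squares. B4GALT1 at 38.5 CPM per kb leads in DHT libraries and GALNT10 at 38.9 CPM per kb in vehicle libraries.

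Summed over its 9 members, the GALNT family stood at 137 ± 5.71 CPM per kb in DHT and 160 ± 18.5 CPM per kb in vehicle libraries (SD, n = 6 each). GALNT10 made up 15.1 ± 0.930% of that sum in DHT and 24.2 ± 1.81% in vehicle libraries, GALNT6 20.5 ± 1.48% and 23.2 ± 2.00%, and GALNT7 16.1 ± 3.09% and 11% ± 2.29, DHT first in each. In DHT libraries the shares of GALNT7, GALNT10 and GALNT14 (14.3 ± 3.71%) differed by less than the SDs of GALNT7 and GALNT14. Shares of a sum are bound to each other, and a fall of one member raises the others. FUT8 made up 59.3 ± 2.41% of the summed FUT level in DHT and 69.0 ± 2.59% in vehicle libraries. B3GNT5 made up 9.52 ± 0.951% of the summed B3GNT level in DHT and 18.2 ± 3.70% in vehicle libraries. No test was run on these sums and shares.

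**Figure D4:**
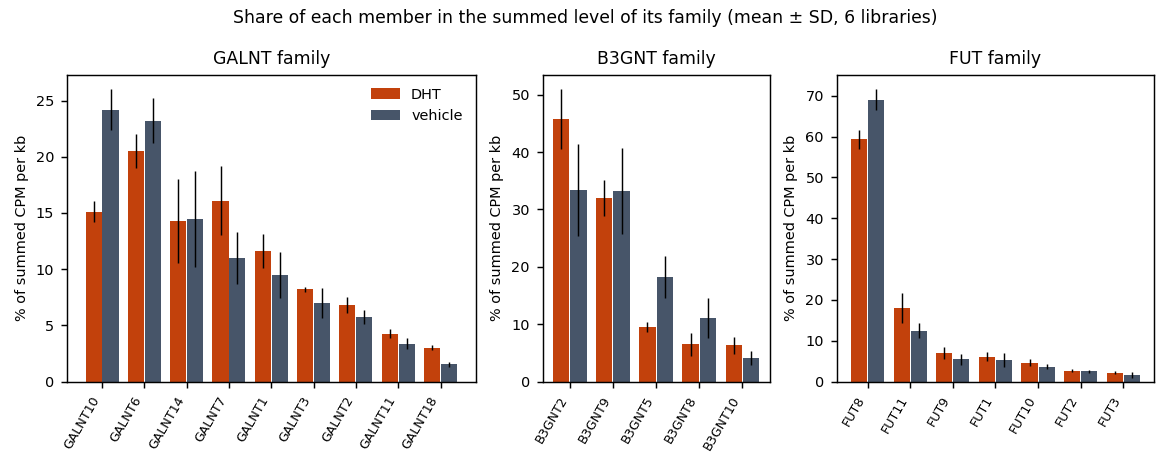
Share of each member in the summed CPM per kb of the GALNT, B3GNT and FUT families, DHT bars left of vehicle bars, mean ± SD of 6 libraries. The bars of GALNT10 stand at 15.1% in DHT and 24.2% in vehicle libraries, and those of FUT8 at 59.3% and 69.0%.

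A further 40 protein-coding genes carry such family names in the reference symbols but were not listed in the authors' table. Of these 39 fell under the low-count filter, and 5 had 0 counts in all libraries, which allows up to 0.0179 CPM (3 counts of the 12 libraries together, counting error only). ST3GAL3 was the 1 that was tested and did not pass (adjusted p = 0.992 in edgeR). ST6GALNAC1, the sialyl-Tn synthase, had 2 counts over the DHT libraries and 6 over the vehicle libraries, and the O-glycan branching gene GCNT3 had 10 and 7, and neither passed the filter. The core 3 enzyme B3GNT6 had 0 counts over the DHT libraries and 2 over the vehicle libraries. The core 1 enzyme C1GALT1 had 8.71 ± 1.64 CPM in DHT and 10.9 ± 3.46 CPM in vehicle libraries (SD, n = 6 each) and did not pass (adjusted p = 0.724 in edgeR).

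Of the 9 genes in a list of glycosylation genes known to be raised by androgen in prostate cells, 0 of 8 tested rose and 0 fell in edgeR, and 1 had too few counts. DESeq2 raised 2 and limma-voom 0, and the median log2 fold change was 0.33, beside -0.05 over all genes tested. Unadjusted p under 0.05 was met by 4 upward and 0 downward, beside 13.7% of the protein-coding genes of the authors' table in either direction. These 4 were the members GALNT7, GCNT1 and ST6GAL1 and the gene UAP1, which makes UDP-N-acetylglucosamine (log2 fold change 0.33, adjusted p = 0.113 in edgeR). UAP1 had 132 ± 9.30 CPM in DHT and 105 ± 10.8 CPM in vehicle libraries (SD, n = 6 each). The others were PGM3 (-0.16), CSGALNACT1 (0.32), EDEM3 (0.11) and TUSC3 (0.04), given as log2 fold changes.

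**Figure D5:**
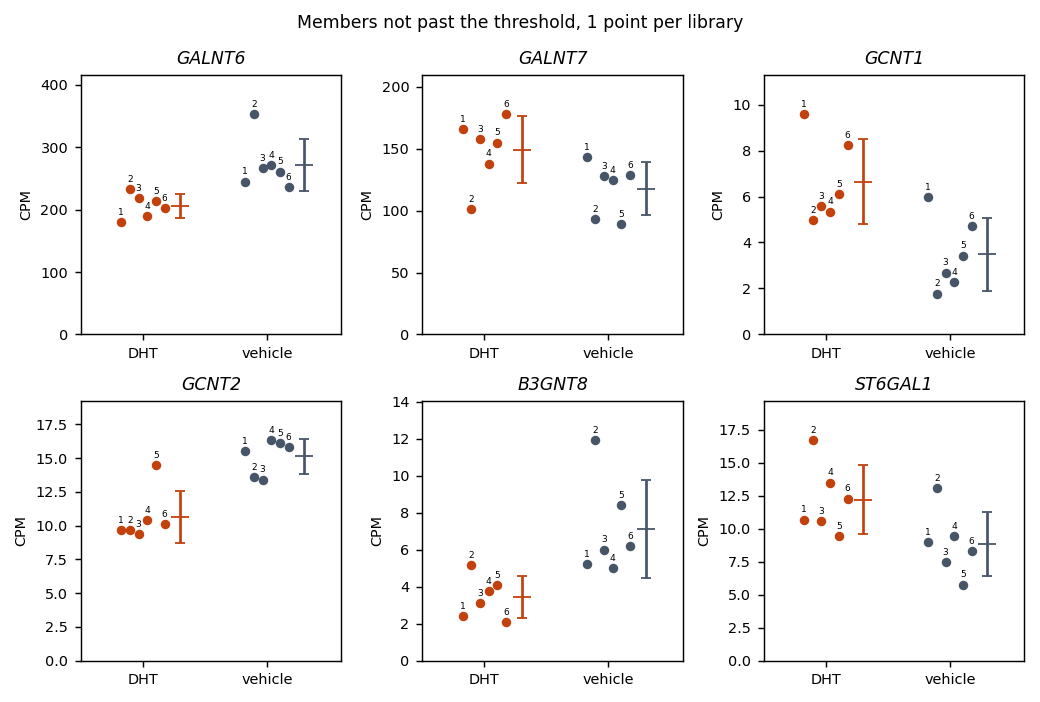
Normalised level in CPM of 6 members that did not pass, in each library, DHT points left of vehicle points, numbered by replicate, with the group mean and SD as bars. For GALNT7, GCNT1 and ST6GAL1 the DHT library was higher for all 6 replicate numbers, and for GALNT6, GCNT2 and B3GNT8 it was lower for all 6. The numbers were not taken as pairs.

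The supply of activated sugars held 2 of 28 tested genes raised, 0 lowered and 26 not passing (median log2 fold change 0.03). Unadjusted p under 0.05 was met by 7 upward and 0 downward, beside 13.7% of the protein-coding genes of the authors' table in either direction. DESeq2 raised 5 and limma-voom 2. Over all genes tested edgeR raised 1.96% and lowered 0.88%. NAGK, which salvages N-acetylglucosamine, had 161 ± 25.5 CPM in DHT and 92.1 ± 17.8 CPM in vehicle libraries (SD, n = 6 each; log2 fold change 0.81, adjusted p = 0.00795 in edgeR). UGDH, which makes UDP-glucuronic acid, had 82.8 ± 16.6 CPM in DHT and 46.7 ± 9.18 CPM in vehicle libraries (SD, n = 6 each; 0.83, adjusted p = 0.0133 in edgeR). Of 15 tested genes of glycan removal 1 rose, namely NEU3, a sialidase of gangliosides, with 54.4 ± 5.05 CPM in DHT and 37.9 ± 3.85 CPM in vehicle libraries (SD, n = 6 each; 0.52, adjusted p = 0.0124 in edgeR). Of 5 tested sulfotransferases 1 fell, namely CHST1, which sulfates galactose of keratan sulfate, with 34.2 ± 3.12 CPM in DHT and 78.0 ± 15.0 CPM in vehicle libraries (SD, n = 6 each; -1.19, adjusted p = 2.22e-04 in edgeR).

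The other lists gave 0 calls in edgeR. They were 17 tested genes of O-glycan start and cores (1 higher and 3 lower at an unadjusted p under 0.05), 12 sugar transporters (1 and 2), 36 genes of N-glycan start and trimming (1 and 0), 6 mucins and mucin-like acceptors (0 and 1) and 8 lectins and lectin ligands (0 and 1). Beside these counts, 13.7% of the protein-coding genes of the authors' table met an unadjusted p under 0.05 in edgeR, in either direction. In these lists limma-voom called 0, where it called 2.8% of all its genes. DESeq2 raised 1 gene of O-glycan start and cores and lowered 1 mucin-like acceptor and 1 lectin or ligand. It called 4.09% of all its genes. MUC1, the main mucin of breast epithelium, had 25 counts over the DHT libraries and 70 over the vehicle libraries and was not tested.

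Library totals ran from 4345939 to 25678380 counts. Both replicate 2 libraries stood apart on the first principal component, with 51.1% of the variance. Vehicle replicate 5 stood apart on the second, with 15.7% of the variance, at 50 beside at most 21.2 in any other library. Among the members both replicate 2 libraries lay above the other 10 libraries for 10 genes and below them for 8. In all protein-coding genes of the authors' table they lay outside the other 10 for 44.7%. For MGAT4B they had 231 CPM in DHT and 286 CPM in vehicle libraries, beside 138 to 162 CPM in the other 10. Without both replicate 2 libraries the 5 changed members were called again, and GALNT6, GCNT2 and B3GNT8 were called lowered too. FKBP5, an androgen target, had 350 ± 63.9 CPM in DHT and 82.4 ± 15.2 CPM in vehicle libraries (SD, n = 6 each). ESR1 and PGR together ran from 0.16 to 0.399 CPM in DHT and from 0.222 to 0.876 CPM in vehicle libraries. Summed fibroblast markers (6 of 6 with counts) ran from 59.9 to 75.8 CPM in DHT and from 76.4 to 110 CPM in vehicle libraries, most of it COL1A1, and basal markers (5 of 5) from 5.64 to 7.37 CPM in DHT and from 13.8 to 21.8 CPM in vehicle libraries. Of the 5 basal markers 2 were tested in edgeR, where 1 was lowered and 1 did not pass. Of the 6 fibroblast markers 3 were tested, and all 3 did not pass. The part of the fibroblast and basal markers in the results was not tested. Leukocyte markers, summed with the red blood cell gene HBB, and endothelial markers stayed at or under 0.321 and 1.55 CPM in all libraries. CD3E and HBB were among the genes at 0.

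The authors' deposited table marks 8 members as changed, 3 raised and 5 lowered, beside 4.25% of its 14559 genes. They include all 5 called here, and also GCNT1 (log2 fold change 0.88, adjusted p = 0.0120 in the authors' deposited table), GCNT2 (-0.55, adjusted p = 0.0248 in the authors' deposited table) and B3GNT8 (-0.86, adjusted p = 0.00615 in the authors' deposited table).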

How the data were processed

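RNA was sequenced in 12 libraries (1 µg of input, single 40 bp reads, per the labels' protocols). The labels name a total RNA kit while the design text says poly-A. The submitters' processing notes list STAR, featureCounts and GRCh38 for the deposited gene counts; versions and strand options are not stated there. Between 39.6% and 46.7% of nonzero values were not whole (tolerance 0.005), so the deposited values were treated as estimated counts and rounded, although the test had been planned for counts as deposited. A record broken over 3 lines was left out. The authors also deposited log2 CPM, log2 fold changes and p-values of their own comparison, per the file headers. Its GC percent and rank score columns, also deposited, were not used.

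The test was edgeR 4.0.16 (quasi-likelihood, group only, in R 4.3.3) after filterByExpr and TMM scaling. CPM uses TMM-scaled totals and each SE divides the absolute log2 change by the root of the F statistic. DESeq2 1.42.0, limma-voom (limma 3.58.1), other scalings and filters, a replicate block and left-out libraries were alternatives. The test was checked on simulated data. Before TMM scaling, totals of 4345939 to 25678380 counts make 1 count 0.230 to 0.0389 CPM. The members, lists and tests were chosen with earlier results of these data known. The rule for named genes took the changed members, the most abundant and lowest-p member of each family, ST6GALNAC1, GALNT7, GCNT1 and ST6GAL1, and up to 3 genes a list and direction. It gave 19 members, B3GNT8 being added later. Of 60670 genes, 60400 matched the symbol table, which names B3GNT10 as B3GALT9. In 24 members some exonic bases are shared with another gene, and 36 held values that were not whole. Some marker genes are not reported here.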

Additional observations from a re-analysis of the deposited data

Results flagged for a closer look

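In a test for 1 library far from the other 5 of its group, applied to 20 named members and the totals, 8 of 42 groups held such a library. For a single group chance gives about 1 in 20. The groups come from the same 12 libraries and are not independent, so the count cannot be read against that share. The share over all genes was not determined. For MGAT4B it was replicate 2 in both groups, at 231 CPM in DHT and 286 CPM in vehicle libraries. Vehicle replicate 2 stood apart for GALNT6 at 353 CPM and for MGAT4A at 36.3 CPM. DHT replicate 5 stood apart for GALNT18 at 16.7 CPM and for GCNT2 at 14.5 CPM. Vehicle replicate 5 stood apart for B4GALT5 at 24.7 CPM. The total of vehicle replicate 6 stood apart at 4345939 counts.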

How the results depend on the processing

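B3GNT5, GALNT10, GALNT18 and FUT8 kept their direction and passed in all 20 alternatives run, with log2 fold changes of -1.22 to -1.11, -0.98 to -0.84, 0.71 to 0.81 and -0.64 to -0.53, and B4GALT5 in 11 of them. The replicate block gave 1286 changed genes, 5 raised and 6 lowered members, and 8 raised and 5 lowered genes of the 173 further list genes. Same-numbered libraries correlated in their deviations by -0.238 to 0.875, so the numbers were not taken as pairs, and only replicate 2 correlated best with its own number. Beyond the 5 changed members the block called GCNT1, ST6GAL1 and B3GALT6 raised (adjusted p = 0.00212, 0.0212 and 0.0483 in edgeR) and B3GNT8, GCNT2 and GALNT6 lowered (0.0024, 0.0137 and 0.0171), of which ST6GAL1 and B3GALT6 passed in no other alternative. DESeq2 gave 778 changed genes, 6 lowered members and 6 raised and 3 lowered list genes. Without both replicate 2 libraries there were 920 changed genes, 6 lowered members and 5 raised and 3 lowered list genes. Without a low-count filter 1 member was raised. Leaving out 1 library at a time gave 278 to 619 changed genes, 1 to 3 raised and 3 to 4 lowered members, 3 to 5 raised and 1 to 2 lowered list genes, a branching median of -0.18 to 0.14 and a chain extension median of 0.01 to 0.18. The cause was not tested. Of the 40 family genes outside the table, 39 were not tested because they fell under the low-count filter.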
